A study of Homo sapiens with 20 samples.

Results

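The splicing of 8 genes that control programmed cell death was examined in the human line HEK293T, which descends from transformed kidney cells of an embryo. The genes were the caspases CASP2, CASP6, CASP8, CASP9 and CASP10 and the BCL2 family members BCL2L1, BCL2L11 and MCL1. The 8 genes were chosen by name, with earlier results of these data known. The 7 deposited tables of splicing events hold 7112 gene symbols. Cells were treated for 24 h with the Aurora-A kinase inhibitor MLN8237 (alisertib), or for the same time with its solvent control DMSO. In separate sets, cells were transfected for 48 h with siRNAs. Depletion of SRSF1, SRSF2, SRSF7 or SF3B5 was set against the non-targeting control siNT1, and depletion of SRSF3 or RBM39 against a second non-targeting control, siNT2. The SRSF proteins are SR proteins, which bind exons and help the splicing machinery to recognise them, RBM39 is an SR-like splicing factor, and SF3B5 is a subunit of the complex that recognises branch points. Each of the 10 groups had 2 samples, which the labels do not tie to separate cultures. All depletions of 1 set are compared with the same control samples, so their changes are not independent of each other. Gene expression was not analysed here, so neither the depletions nor the identity of the line was checked.

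Caspases are proteases that lie dormant until they are recruited or cut. Initiator caspases are switched on by assembly: caspase-8 and caspase-10 at death receptors on the cell surface, caspase-9 at the apoptosome that forms when mitochondria release cytochrome c, and caspase-2 at the PIDDosome. They act upstream of executioner caspases, among which caspase-6 is counted. The BCL2 family decides whether mitochondria are breached, with BCL-XL (from BCL2L1) and MCL-1 as guardians and BIM (from BCL2L11) as a BH3-only activator of death. Several of these genes are textbook cases of splicing that yields isoforms of opposite action, such as BCL-XL and BCL-XS, MCL-1L and MCL-1S, and caspase-9 and caspase-9b.

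The measurement was the percent spliced in (PSI). For an exon or intron, it is the percent of the transcripts covering that place that contain the segment. For an alternative splice site, it is the percent that use that site among its competing sites. It is not a share of all transcripts of the gene. The authors' deposited tables give it as the average of each group. All PSI values below are those averages, and a change is treated minus control in percentage points. They carry no replicate error, the read depth behind them is unknown, and no test of a single event was possible. The tables hold only events whose PSI differed by more than 15 points, so an event that is not listed may have changed less or may have been too poorly covered. PSI describes the transcripts that were present, and transcripts degraded after missplicing are not counted in it.

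The 8 genes had 33 listings of 17 different events, and 7 of the 8 genes had at least 1. CASP10 had none. CASP8 held 13 listings of 6 events and CASP9 11 listings of 3 exons, and both were listed in 4 tables. The tables for MLN8237 and for SRSF3 depletion listed no event in any of the 8 genes. The MLN8237 table held 1.06% of the 19275 events listed anywhere and 2.73% of the genes, so Aurora-A inhibition offered few events to begin with. The SRSF3 table was among the larger ones, with 22.0% of events and 39.4% of genes. SF3B5 depletion listed all 7 genes and 13 of the 17 events, against 71.0% of all genes and 61.4% of all events in the 7 tables. SRSF2 depletion listed 7 events in 3 genes, in a table with 14.2% of all events and 27.1% of all genes. RBM39 depletion listed 6 events in 3 genes, in a table with 20.5% of events and 36.5% of genes. SRSF1 depletion listed 5 events, all in CASP8, beside 10.7% of all events and 22.4% of genes, and SRSF7 depletion 2 exons, both in CASP9, beside 9.17% of events and 19.7% of genes.

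The 17 events were 13 cassette exons and 4 alternative splice sites, with no retained intron and no microexon of up to 27 bases. Each of the 27 exon listings was lower in the depleted cells than in their control. Lower inclusion was also the common direction in these tables, at 62.6% of all listed exons for SRSF1, 73.5% for SRSF2, 78.5% for SRSF7, 97.9% for SF3B5 and 89.3% for RBM39. In the tables with no exon of the 8 genes it was 48.8% for MLN8237 and 80.9% for SRSF3. The 6 splice site listings were all higher, as was every alternative splice site in the 7 tables, so their direction carries no information. Of the 27 exon listings, 19 had a control PSI between 20 and 80, from which a change past the threshold could have gone either way. All of these were lower as well. They mostly repeat the same few exons of CASP8 and CASP9, with an exon of BCL2L11, and most share the siNT1 control. These listings are therefore not separate observations, and the direction of all listed exons in that window was not counted.

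**Figure D1:**
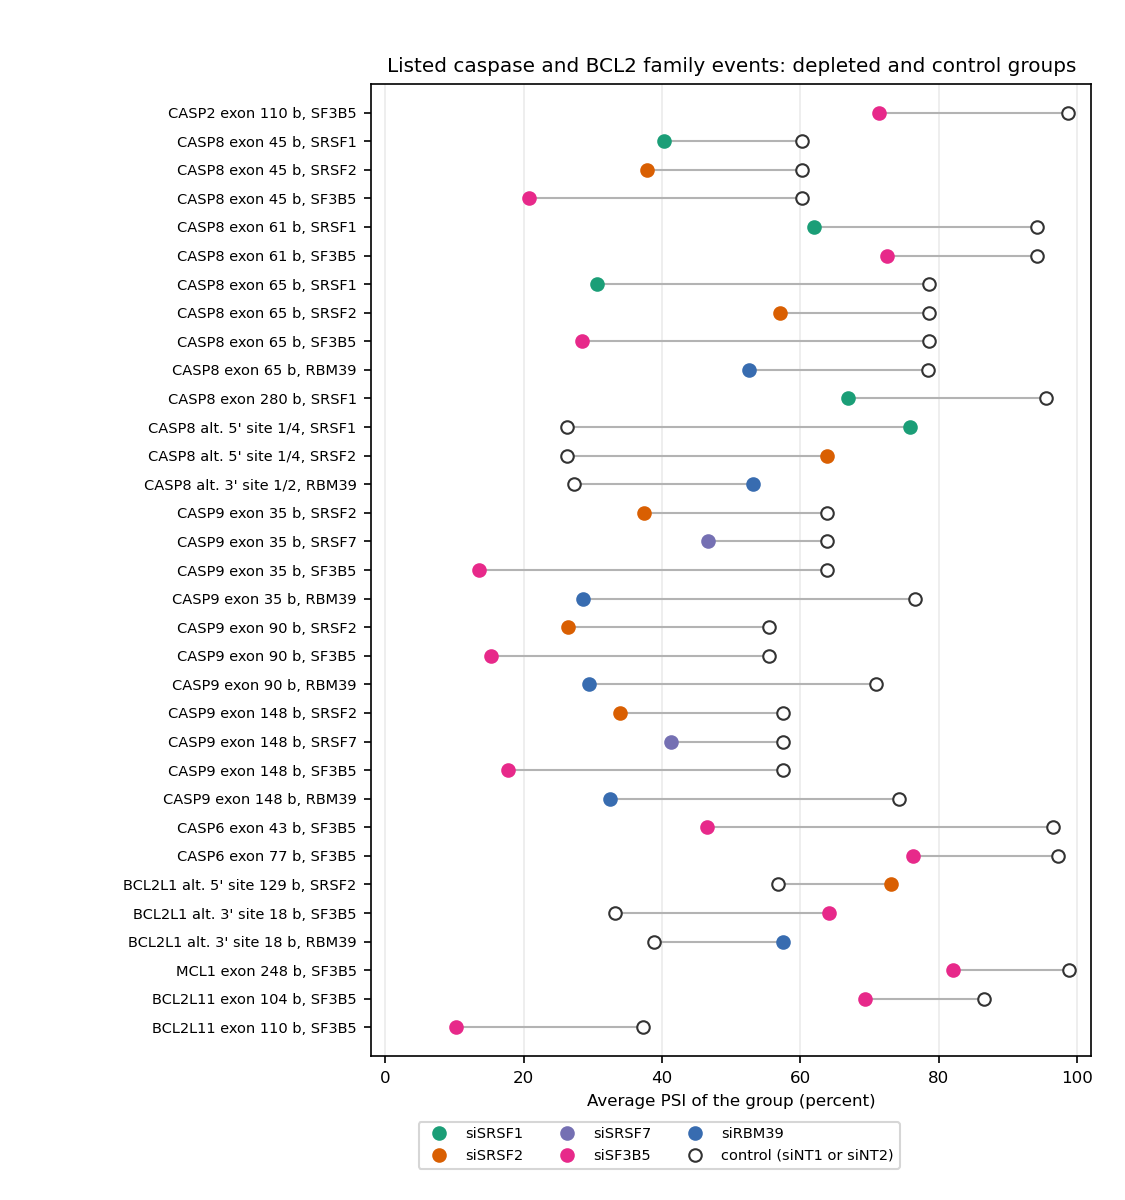
Average PSI in percent for each of the 33 listings, 1 per line, with the length of the exon or added segment in bases (b) or the number of the splice site. Filled points are the depleted groups and open points the non-targeting control of the same table. In every exon line the filled point lies left of the open one, and in every splice site line it lies to the right.

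CASP8, the initiator caspase of death receptors, was listed after depletion of SRSF1, SRSF2, SF3B5 and RBM39. A 65-base coding exon was listed in all 4 tables. It stood at 30.6% in siSRSF1 cells, 57.0% in siSRSF2 cells and 28.5% in siSF3B5 cells, against 78.5% in siNT1 cells. In the other set it stood at 52.6% in siRBM39 cells, against 78.4% in siNT2 cells. Both control groups included the exon to nearly the same degree, and in siSRSF1 and siSF3B5 cells it was skipped more often than included. The change of -47.9 points after SRSF1 depletion was matched or passed in size by 3.65% of the exons listed there, and that of -50.1 points after SF3B5 depletion by 9.92%. After SRSF2 and RBM39 depletion the exon lay nearer the middle of the lists, with 54.6% and 36.2% of listed exons at least as far from control.

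The exon just upstream, of 45 bases, was listed in 3 tables. It was at 40.3% in siSRSF1, 37.8% in siSRSF2 and 20.8% in siSF3B5 cells, against 60.2% in siNT1 cells. The tables give no coordinates, so exons were placed where a single annotated exon of the gene has the listed length. A placement, and what is read from it about frame and stop codons, would be wrong if the event used an exon outside that annotation. By length these 2 neighbours are exons 6 and 7 of the transcript CASP8-212, at chr2:201272898-201272942 and chr2:201274889-201274953 on the plus strand of GRCh38. Their lengths differ in what they do to the reading frame. The 45-base exon can be left out without a shift, and the proteins read from CASP8-212 with and without it have 479 and 464 residues, the second being the length annotated for CASP8-203. The 65-base exon shifts the frame when it is skipped alone. The exons, from GENCODE release 29 transcripts like all sequences here, are shown because they carry most of the CASP8 result, followed by the junction that skipping of the 65-base exon makes, read from 15 bases before the junction to the first stop codon, which is in capitals.
CASP8 45-base exon: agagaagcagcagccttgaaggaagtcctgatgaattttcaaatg
CASP8 65-base exon: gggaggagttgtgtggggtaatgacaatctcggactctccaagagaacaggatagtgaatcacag
CASP8 junction without the 65-base exon: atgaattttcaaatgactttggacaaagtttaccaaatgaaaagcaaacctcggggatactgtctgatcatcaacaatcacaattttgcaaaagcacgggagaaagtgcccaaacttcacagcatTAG
Read in frame from CASP8-212, this junction leads to a stop codon 110 bases downstream, after 235 codons, and 531 bases ahead of the last exon junction. The annotated transcript CASP8-206 has the same number of codons. If the following exon of 142 bases is skipped as well, 207 bases are lost, the frame is kept and 410 codons remain, but no event of 142 bases was listed.

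Further CASP8 exons were listed without an annotated exon of their length, so their place in the gene is not given. An exon of 61 bases was at 62.0% in siSRSF1 and 72.5% in siSF3B5 cells, against 94.2% in siNT1 cells. An exon of 280 bases was at 66.9% in siSRSF1 cells, against 95.4% in siNT1 cells, and was in no other table. Both were near full inclusion in the control, so they could only have been listed as lower. A 5' splice site of CASP8, numbered 1 of 4, was used at 75.8% in siSRSF1 and 63.9% in siSRSF2 cells, against 26.3% in siNT1 cells. Its 49.5-point difference after SRSF1 depletion was the largest of the 8 genes in that table, and 1.46% of the listings there that are not exons were at least as large. A 3' splice site, numbered 1 of 2, was used at 53.1% in siRBM39 cells, against 27.3% in siNT2 cells. Whether these sites belong to the same transcripts as the skipped exons cannot be read from averages of single events. CASP10, the neighbour and relative of CASP8 whose protein is also switched on at death receptors, had no listed event.

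CASP9, the initiator caspase of the apoptosome, was listed after depletion of SRSF2, SRSF7, SF3B5 and RBM39, always through the same small group of exons. By length they are exons 3, 5 and 6 of the 9 exons of CASP9-201, with 35, 90 and 148 bases. Leaving out exons 3 to 6 together removes 450 bases in frame and gives caspase-9b, the annotated transcript CASP9-202 with 266 codons in place of 416. Caspase-9b lacks the catalytic residues and is known as an inhibitor of caspase-9 activation. Exon 4, of 177 bases, had no listed event in any table. Leaving out only the 3 listed exons removes 273 bases and does not give caspase-9b. The reading frame then meets a stop codon after 161 codons, 399 bases ahead of the last exon junction.

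**Figure D2:**
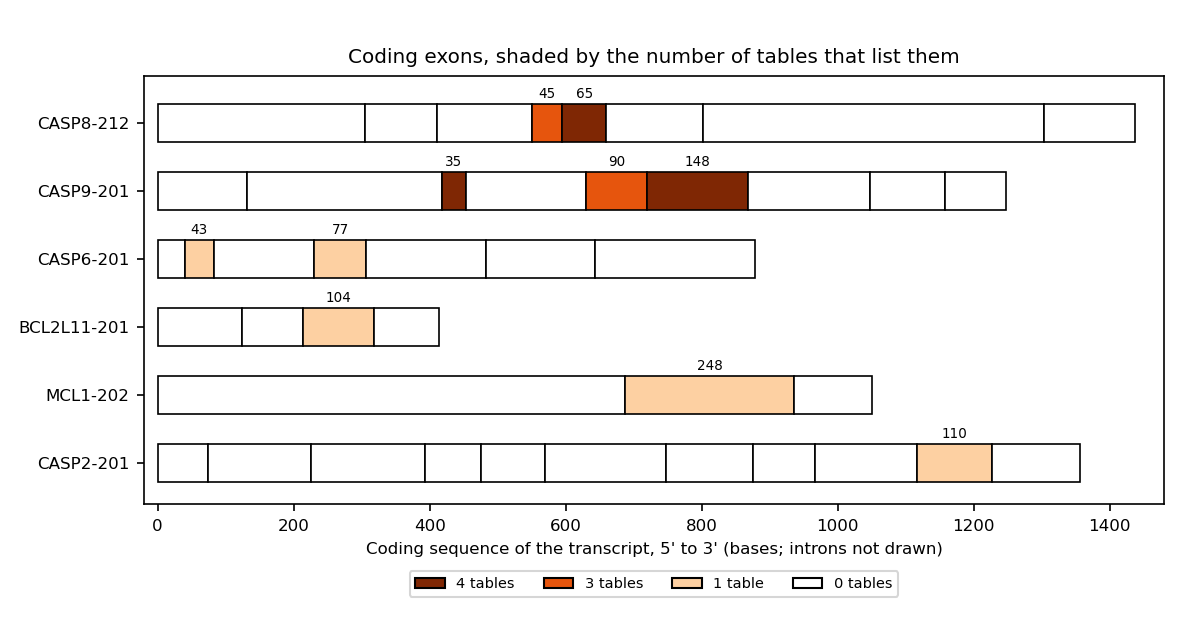
Coding exons of 6 annotated transcripts drawn to scale along the coding sequence in bases, with introns left out. Shading gives the number of tables that list the exon, and numbers above are lengths in bases. The CASP9 exons with 4, 3 and 4 listings flank an unlisted exon, and the 2 CASP8 exons with 3 and 4 listings are adjacent.

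The 35-base exon of CASP9 was at 37.4% in siSRSF2, 46.7% in siSRSF7 and 13.5% in siSF3B5 cells, against 63.8% in siNT1 cells. The 90-base exon was at 26.4% in siSRSF2 and 15.3% in siSF3B5 cells, against 55.5% in siNT1 cells. The 148-base exon was at 34.0% in siSRSF2, 41.3% in siSRSF7 and 17.7% in siSF3B5 cells, against 57.5% in siNT1 cells. Among the depletions set against siNT1 that list these exons, SF3B5 depletion had the lowest inclusion of each, and SRSF7 depletion had higher inclusion than SRSF2 depletion for both exons it lists. The 90-base exon was not listed for SRSF7 and no CASP9 exon was listed for SRSF1, so their values there are not known. In the second set, the 35-base exon was at 28.6% in siRBM39 cells, against 76.6% in siNT2 cells. The 90-base exon was at 29.4% in siRBM39 cells, against 70.9% in siNT2 cells, and the 148-base exon at 32.5% in siRBM39 cells, against 74.3% in siNT2 cells. After RBM39 depletion these were among the larger changes in the table. Only 2.86%, 6.94% and 6.69% of listed exons changed at least as much as the 35-base, 90-base and 148-base exons.

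The PSI of the listed exons spanned 3.91 points in siRBM39 cells, 4.18 points in siSF3B5 cells and 11.0 points in siSRSF2 cells, against 5.65 points in siNT2 cells and 8.30 points in siNT1 cells. The exons share transcripts and partly share reads, so they are not separate pieces of evidence.

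**Figure D3:**
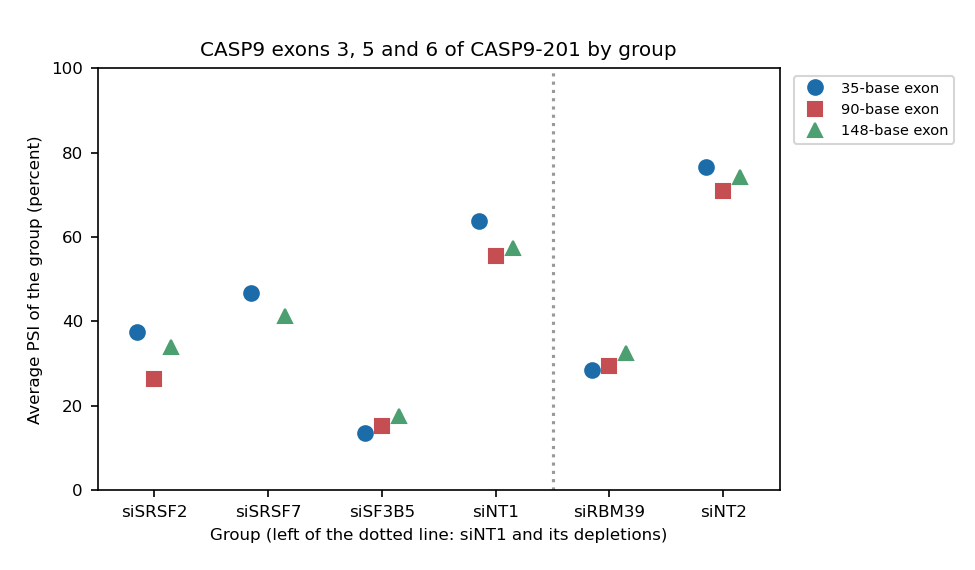
Average PSI in percent of the 35-base, 90-base and 148-base exons of CASP9 by group, with siNT1 and its depletions left of the dotted line and siRBM39 and siNT2 right of it. Each plotted exon is lower in the depleted groups than in their control (the 90-base exon has no value in siSRSF7 cells), siSF3B5 cells have the lowest values, and the siNT2 values lie above the siNT1 values.

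The control groups themselves differed at CASP9. The 35-base, 90-base and 148-base exons were 12.8, 15.4 and 16.9 points higher in siNT2 than in siNT1 cells. Over the 3392 events listed against both controls, the median absolute difference between siNT2 and siNT1 was 2.72 points, and differences as large as those of the 3 exons were found in 5.45%, 2.62% and 1.74% of events. The changes after SRSF7 depletion, of -17.1 and -16.1 points, were therefore about the size of the difference between control groups at the same exons. The changes after SF3B5 depletion, of -50.3 to -39.8 points, and after RBM39 depletion, of -48.0 to -41.6 points, were more than that, and so were those after SRSF2 depletion, of -29.1 to -23.5 points. The part of the sample set in these differences was not tested. The 65-base exon of CASP8 differed by -0.135 points between siNT2 and siNT1, and the 3' splice site of BCL2L1 described below by 5.63 points.

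The CASP9 exons lie on the minus strand of chromosome 1 in GRCh38, at chr1:15507873-15507907 for exon 3, chr1:15506899-15507075 for exon 4, chr1:15505990-15506079 for exon 5 and chr1:15504611-15504758 for exon 6. They are shown because together they make up the segment that separates caspase-9 from caspase-9b. Capitals mark the codons of the catalytic histidine and its neighbours (codons 236 to 238) in exon 5, and those of the pentapeptide with the active-site cysteine (codons 285 to 289) in exon 6. The last sequence is the junction of exon 2 to exon 7, with 15 bases from each side.
CASP9 exon 3: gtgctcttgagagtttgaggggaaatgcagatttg
CASP9 exon 4: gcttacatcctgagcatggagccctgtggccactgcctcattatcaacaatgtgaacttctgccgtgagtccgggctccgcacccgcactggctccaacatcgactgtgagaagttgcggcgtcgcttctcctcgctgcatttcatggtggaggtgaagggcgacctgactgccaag
CASP9 exon 5: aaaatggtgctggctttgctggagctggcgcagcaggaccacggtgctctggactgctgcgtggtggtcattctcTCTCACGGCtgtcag
CASP9 exon 6: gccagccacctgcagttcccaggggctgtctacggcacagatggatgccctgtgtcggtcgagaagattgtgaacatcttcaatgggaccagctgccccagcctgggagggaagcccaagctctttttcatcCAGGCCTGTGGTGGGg
CASP9 junction of exon 2 to exon 7: gatttggtgatgtcgagcagaaagaccatg
Both catalytic residues thus lie in exons with lower listed inclusion. Skipped alone, exon 3 shifts the frame and leads to a stop codon 65 bases after the junction, and exon 6 does so with a stop codon after 99 bases. These stop codons lie 637 and 188 bases ahead of the last exon junction, and early stops of this kind are a known signal for nonsense-mediated decay. Exon 5 skipped alone keeps the frame. Which combination was skipped cannot be read from these tables. Exons 4, 5 and 6 were rich in G and C, at 58.2%, 60.0% and 60.1%, against medians of 50.8%, 48.9% and 50.7% over coding exons of the same lengths, while exon 3 had 45.7% against 48.6%.

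CASP6, an executioner caspase that cleaves nuclear lamins, was listed only after SF3B5 depletion. Its 43-base exon 2 was at 46.5% in siSF3B5 cells, against 96.5% in siNT1 cells, and its 77-base exon 4 at 76.3% in siSF3B5 cells, against 97.2% in siNT1 cells. Exon 2 was thus skipped more often than included in siSF3B5 cells, at 53.5% skipped, against 3.53% in siNT1 cells. The change of -50.0 points was matched or passed in size by 10.0% of exons in that table, and the change of -20.9 points of exon 4 by 69.2%. Exon 2 lies at chr4:109698300-109698342 and exon 4 at chr4:109696410-109696486, on the minus strand of GRCh38. Exon 2 is shown because it encodes the site behind the prodomain at which caspase-6 is cut (codons 20 to 23, in capitals), followed by the junction that skipping of exon 4 makes, up to the stop codon in capitals.
CASP6 exon 2: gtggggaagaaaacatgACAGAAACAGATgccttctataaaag
CASP6 junction without exon 4: caatcttacccgcagtgtcaactgtTAG
Skipped alone, exon 2 leaves 33 codons and exon 4 leaves 80 codons of the 293 in CASP6-201, with stop codons 498 and 323 bases ahead of the last exon junction. If exons 2 to 4 are left out together, 267 bases are lost in frame, as in the annotated transcript CASP6-202 with 204 codons. The 147-base exon 3 between them had no listed event.

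CASP2, the caspase of the PIDDosome, also had its only listing after SF3B5 depletion. The 110-base exon 10 of CASP2-201, at chr7:143304674-143304783 on the plus strand, was at 71.3% in siSF3B5 cells, against 98.6% in siNT1 cells. The change of -27.2 points lay in the middle of that table, where 47.5% of exons changed at least as much. CASP2 is best known in splicing for an exon of 61 bases whose inclusion gives the short form CASP-2S. No CASP2 event of that length was listed.

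Among the guardians of mitochondria, BCL2L1 had 2 splice sites listed and no exon. A 3' splice site that adds 18 bases was used at 64.1% in siSF3B5 cells, against 33.2% in siNT1 cells, and at 57.5% in siRBM39 cells, against 38.8% in siNT2 cells. A single pair of annotated exons differs by this length at its start, at chr20:31722331-31722348 on the minus strand, and the 18 bases lie ahead of the coding sequence, in the 5' untranslated region. A 5' splice site with a segment of 129 bases was used at 73.1% in siSRSF2 cells, against 56.8% in siNT1 cells. It has no annotated pair of that length. The switch between BCL-XL and BCL-XS uses 5' splice sites 189 bases apart, and no BCL2L1 event of 189 bases was listed after any treatment.

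MCL1 was listed once, with its 248-base exon 2 at 82.0% in siSF3B5 cells, against 98.8% in siNT1 cells. Skipping of this exon gives MCL-1S, which lacks the BH1 and BH2 motifs and the membrane anchor and promotes death rather than survival. The skipped share at this exon was 18.0% in siSF3B5 cells, against 1.20% in siNT1 cells. The change of -16.8 points was near the lower limit of the table, where 89.9% of exons changed at least as much. The exon lies at chr1:150578244-150578491 on the minus strand. The exon is shown with a part of the BH1 motif (codons 260 to 263) in capitals, since loss of the exon is what separates both forms.
MCL1 exon 2: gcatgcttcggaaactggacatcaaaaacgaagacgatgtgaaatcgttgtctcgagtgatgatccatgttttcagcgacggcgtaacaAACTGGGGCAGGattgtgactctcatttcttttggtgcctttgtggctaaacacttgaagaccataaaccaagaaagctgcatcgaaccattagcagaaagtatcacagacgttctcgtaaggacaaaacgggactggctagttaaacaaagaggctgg
Without it, MCL1-202 reads 271 codons in place of 350, and the stop codon lies in the last exon.

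BCL2L11, which encodes the BH3-only protein BIM, had 2 exons listed after SF3B5 depletion. A 104-base exon was at 69.3% in siSF3B5 cells, against 86.5% in siNT1 cells, and a 110-base exon at 10.3% in siSF3B5 cells, against 37.3% in siNT1 cells. The 110-base exon was a minor form in the control and lower still in siSF3B5 cells, and no annotated exon of BCL2L11 has its length. The 104-base exon is exon 4 of BCL2L11-201, at chr2:111150044-111150147 on the plus strand. It is shown because it holds the core of the BH3 motif (codons 92 to 98, in capitals), the part of BIM that binds BCL2 proteins, and is followed by the junction made when it is skipped, up to the stop codon in capitals.
BCL2L11 104-base exon: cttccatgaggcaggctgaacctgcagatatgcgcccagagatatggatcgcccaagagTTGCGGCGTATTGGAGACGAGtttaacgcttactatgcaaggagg
BCL2L11 junction without it: atctcagtgcaatgggtatttttgaaTAA
Read from BCL2L11-201, the skipped form has 75 codons in place of 138 and no BH3 core. SF3B5 depletion listed lower inclusion both for the MCL1 exon that the survival form needs and for the BCL2L11 exon that holds the death motif. Lower inclusion was the direction of 97.9% of exons listed there. The change of -17.2 points of the BCL2L11 exon was matched or passed in size by 87.9% of them. Protein was not measured in these tables.

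Most listed exons of the 8 genes had a length that does not divide into whole codons. Of 13 different exons, 11 (84.6%) had a length that is not a multiple of 3, compared with 58.6% of the 14593 exons listed in any table. Their median length was 90.0 bases, from 35 to 280, against 100 bases over all listed exons. Of these 11, the CASP8 exons of 61 and 280 bases and the BCL2L11 exon of 110 bases have no annotated match, so whether they are coding is not known. No test was made on these counts, and several of the exons lie in the same gene.

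The sizes of the changes lay above the middle of the tables in some depletions only. The median absolute change of the listed events was 32.2 points for SRSF1 (5 events) and 21.5 points over that whole table, 33.7 points for RBM39 (6 events) and 21.7 points over the table, and 31.0 points for SF3B5 (13 events) and 25.4 points over the table. For SRSF2 it was 23.5 points (7 events) and 22.1 points over the table, and for SRSF7 16.6 points (2 events) and 20.4 points over the table. Changes of at least 25 points were 4 of 5 for SRSF1 (34.2% of that table), 5 of 6 for RBM39 (35.6%), 9 of 13 for SF3B5 (51.3%), 3 of 7 for SRSF2 (37.9%) and 0 of 2 for SRSF7 (27.2%). The high values for SRSF1 come from CASP8 alone, and those for RBM39 mostly from the CASP9 exons.

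**Figure D4:**
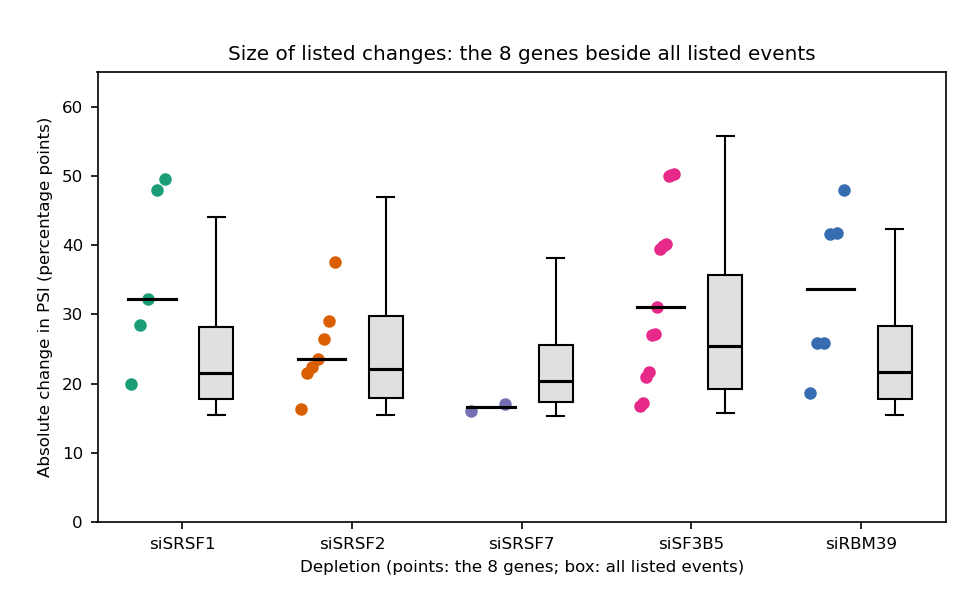
Absolute change in PSI in percentage points for each listed event of the 8 genes (points, with their median as a bar) beside all listed events of the same table (box from the 25th to the 75th percentile, whiskers at the 5th and 95th). The points for siSRSF1 and siRBM39 reach 49.5 and 48.0 points, above the upper whisker, while both points for siSRSF7 lie in the lower part of the range.

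Other genes of the cell death pathway were followed in 8 lists with 65 genes, of which 26 (40.0%) had a listed event, compared with 33.9% of the 19936 protein-coding symbols of GENCODE release 29, whether or not HEK293T cells express them. The lists held 58 events and 78 listings in all, and single lists are given below by their counts, which are too small to set against that share. MLN8237 had none of these listings. SRSF3 depletion, with no event in the 8 genes, had 20 (25.6%) here, beside 15.8% of all listings in the 7 tables. Of these 20, 8 were in the list of caspase inhibitors and their antagonists. The single gene BIRC6 held 17 of the 27 listings of that list over all tables, so these shares lean on few genes. SF3B5 depletion had 29 (37.2%, beside 44.1% of all listings), SRSF2 depletion 8 (10.3%, beside 10.2%), SRSF7 depletion 8 (10.3%, beside 6.60%), SRSF1 depletion 7 (8.97%, beside 7.72%) and RBM39 depletion 6 (7.69%, beside 14.7%). Of the 55 exon listings 51 (92.7%) were lower in the depleted cells, near the 87.4% of all exon listings. Of 11 intron listings 10 (90.9%) were higher, near the 84.5% of all intron listings. Of the 3 pore-forming proteins only BAX had listed events. Its 52-base exon was at 59.6% in siSF3B5 cells, against 88.6% in siNT1 cells. Its 147-base exon was at 63.7% in siSRSF1 and 71.9% in siSF3B5 cells, against 88.7% in siNT1 cells. Of 4 other guardians only BCL2L2 had a listed event, a 616-base intron retained at 44.0% in siSRSF2 cells, against 17.9% in siNT1 cells.

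Among 13 other BH3-only and BCL2-like genes, 5 had listings. A 273-base exon of BCL2L12 was at 31.4% in siSRSF3 cells, against 81.1% in siNT2 cells. A 70-base exon of BCL2L13 was at 37.7% in siSF3B5 cells, against 80.8% in siNT1 cells. A 1403-base intron of BBC3, which encodes the p53 target PUMA, was retained at 38.3% in siSF3B5 cells, against 0.705% in siNT1 cells. Of 10 platform and adaptor genes 7 were listed. CFLAR, which encodes the caspase-8 regulator c-FLIP, had a 170-base exon at 57.3% in siSRSF1 cells, against 94.0% in siNT1 cells. PIDD1, the scaffold that activates caspase-2, used a 3' splice site at 84.1% in siSRSF2 cells, against 38.9% in siNT1 cells. A 577-base intron of NOL3, an inhibitor of death receptor signalling, was retained at 75.3% in siRBM39 cells, against 43.5% in siNT2 cells.

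Of 9 caspase inhibitors and their antagonists 6 were listed. BIRC6, a giant ubiquitin ligase that restrains caspases, had a 315-base exon at 44.2% in siSRSF3 cells, against 98.7% in siNT2 cells, and a 90-base exon at 29.4% in siSF3B5 cells, against 69.9% in siNT1 cells. A 96-base exon of HTRA2, a mitochondrial protease that counters these inhibitors, was at 28.6% in siSF3B5 cells, against 69.8% in siNT1 cells. Of 11 death receptor and ligand genes 2 were listed, both only after SF3B5 depletion. TNFRSF10B, a receptor for the ligand TRAIL, had a 111-base exon at 80.2% in siSF3B5 cells, against 99.5% in siNT1 cells, and a 106-base exon at 81.5% in siSF3B5 cells, against 98.1% in siNT1 cells. A 1511-base intron of TNFRSF21 was retained at 34.7% in siSF3B5 cells, against 10.8% in siNT1 cells. Among 9 substrates and nucleases of the execution phase 4 were listed. DFFB, the nuclease that cuts DNA between nucleosomes, had a 127-base exon at 42.3% in siSRSF2 cells, against 90.2% in siNT1 cells. ACIN1, a splicing-associated protein that caspases cleave, had a 120-base exon at 58.0% in siSRSF3 cells, against 22.9% in siNT2 cells, and a 108-base exon at 66.6% in siSF3B5 cells, against 99.9% in siNT1 cells.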

How the data were processed

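The 7 tables were used as deposited. Per the file headers, PSI is a percent value that the authors averaged over each group, with the difference as treated minus control in percentage points. The tools that the submitters' processing notes name are cutadapt and Bowtie, with hg38 as the build. Their versions, the read depth and the rule for listing an event were not stated in what was used here, and the naming of the tables points to VAST-TOOLS. Rows were taken where the gene symbol equalled 1 of the 8 members. Of 41 RefSeq synonyms of the members, none had a row. All 26803 listings gave the backgrounds, and 105 of them have no gene symbol. No test was made, because group averages leave no replicate values.

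The tables give no coordinates, so exons were placed by length in GENCODE release 29 (GRCh38), only where a gene has a single exon, or a single pair of splice sites, of that length. Sequences came from GENCODE transcripts and were read in frame from the named transcript. Sites in capitals were found by translation. Python 3.11.15 and pandas 2.3.3 were used. The members and gene lists were chosen with earlier results of these data known. Other pathway genes were named by the largest absolute changes, up to 3 per list. The result of 1 list is not reported here.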

Additional observations from a re-analysis of the deposited data

How the results depend on the processing

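Several settings could not move a value and say nothing about stability: synonyms had no row, the 8 genes had no retained intron, the MLN8237 and SRSF3 tables had no event of these genes, and any subset of exon listings that were all lower is also all lower. With changes of at least 25 points, 3 events were left for SRSF2 and 0 for SRSF7, and the median absolute change was 40.1 points for SRSF1, 29.1 for SRSF2, 39.8 for SF3B5 and 41.6 for RBM39. Without alternative splice sites it was 30.3 points for SRSF1, 33.3 for SF3B5 and 41.7 for RBM39. With 1 event per gene it was 49.5 points for SRSF1 (CASP8 alone), 29.1 for SRSF2, 17.1 for SRSF7 and 25.8 for RBM39. The SRSF1 table then held no exon of the 8 genes, and the SRSF7 table held no event past 25 points. No paired analysis was possible because the tables give group averages only, and for the same reason no replicate could be left out. Depth per event is unknown.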
